A study of Mus musculus with 6 samples.

Results

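The integrated stress response was followed through 10 genes: the transcription factor ATF4 (Atf4), its partner factors Atf5, Ddit3 and Atf3, the amino acid enzymes Asns and Psat1, the growth restraints Sesn2 and Ddit4, and the feedback genes Trib3 and Ppp1r15a. They were chosen by symbol. The array files carry accessions rather than symbols, so probes that were not controls were named through their RefSeq accession (annotation of GRCm38.p6). All 10 genes were found among the 14932 named genes tested, on 12 of the 55681 probes, and all 12 probes were well above background on all 6 arrays. The cells were adult hippocampal precursor cells from the dentate gyrus of male C57BL6/JRj mice 8 weeks old, grown as an adherent layer with 20 ng/ml each of EGF and bFGF. These cultures were given human LDL, the lipoprotein that carries most cholesterol in blood, or saline for 48 h, with 3 arrays in each group. The dose was 100 ug/ml per the treatment protocol, while the sample descriptions write it per microlitre, so its unit is uncertain. The 3 experiments came from different passages of cultured cells, which no longer have the surrounding cells of the dentate gyrus, and how many mice were pooled is not stated.

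In the integrated stress response, kinases that sense different stresses (amino acid shortage, unfolded protein in the endoplasmic reticulum, heme deficiency or mitochondrial stress, and double-stranded RNA) phosphorylate the translation factor eIF2. General protein synthesis then slows, while messages with short upstream reading frames, among them those of ATF4, ATF5, CHOP (the product of Ddit3) and GADD34 (the product of Ppp1r15a), are translated better. ATF4 binds composite C/EBP-ATF elements and induces genes of amino acid synthesis and uptake, and TRIB3 and GADD34 later damp the response. Because ATF4 is controlled largely at translation, the amount of its mRNA does not report the amount of its protein. In bulk RNA, fewer cells with a transcript and less transcript per cell cannot be told apart.

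Each array had 1 colour. The 75th percentile of the processed signal, to which every array was scaled, lay between 730.4 and 961.7, and between 55.9% and 66.9% of probes were well above background. The number of arrays limits the precision. Values below are normalized log2 signals relative to that percentile, for the probe with the highest mean signal of a gene unless another is named, and they are not comparable between probes.

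None of the 10 genes passed an adjusted p of 0.05 in limma after LDL, against 0.140% of all 24222 features tested (34 features, of which 6, or 0.0248%, were higher and 28, or 0.116%, lower). At an unadjusted p below 0.05 there were 2 of the 10, Trib3 and Ddit3, both with positive differences, against 7.50% of all features (2.98% higher and 4.52% lower). These were also the only 2 of the 10 in which every LDL array lay above every saline array, where 14.6% of all features had groups that did not overlap with all LDL arrays higher in 5.83% and lower in 8.79%. Of the 10 differences 7 were positive, and the median log2 difference of the 10 was 0.13, beside -0.03 over all features, of which 43.7% were positive. Leaving out LDL replicate 1 took that median to 0.03, leaving out saline replicate 3 to 0.06 and leaving out saline replicate 2 to 0.23. The differences were unequal among the 10 genes: the feedback gene Trib3 and the factor Ddit3 had differences near 0.8, while Atf4, Asns and Psat1 had differences no larger than 0.03 in size.

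**Figure D1:**
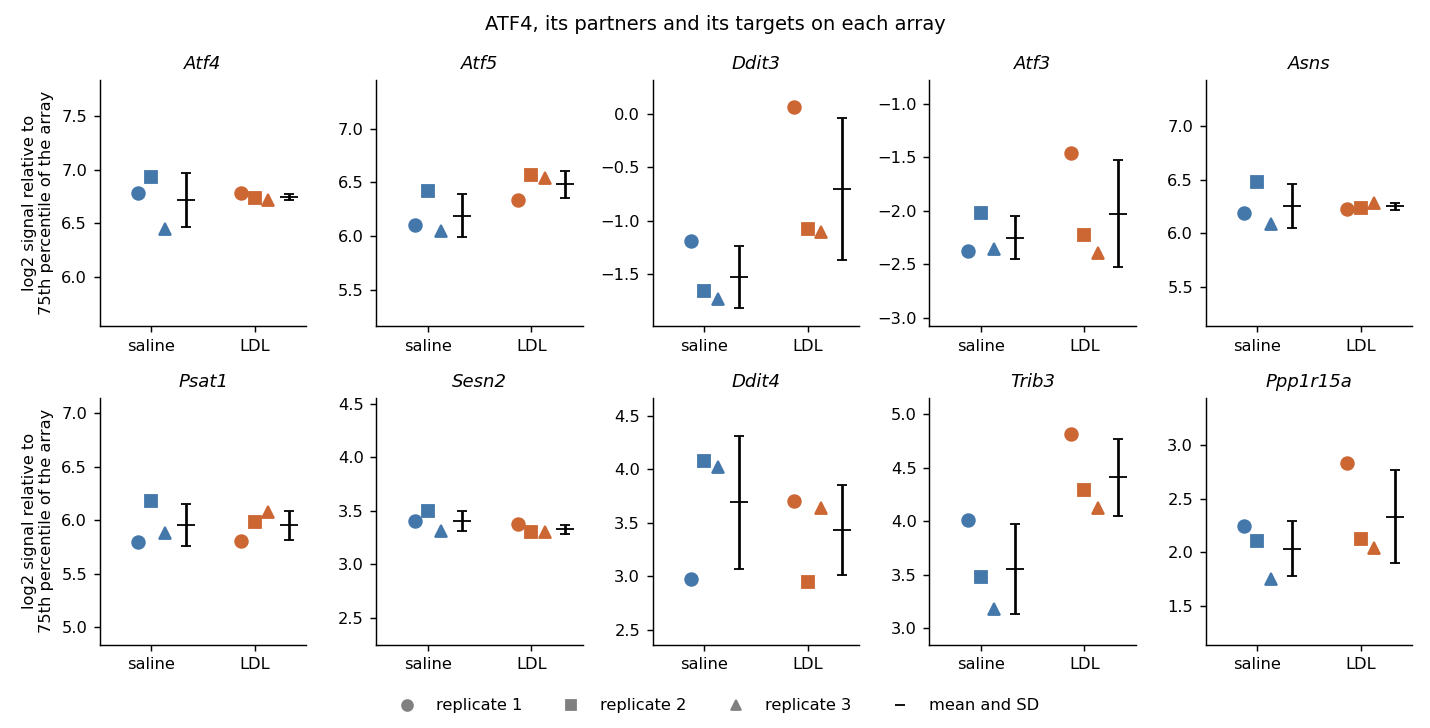
Normalized log2 signal (vertical axis, relative to the 75th percentile of each array) of the 10 genes on the 3 saline arrays (blue) and 3 LDL arrays (orange), with mean and SD beside each group; marker shapes give the replicate number and each panel spans the same range of log2 units. The LDL arrays lie above all saline arrays for Trib3 (lowest LDL 4.13, highest saline 4.01) and Ddit3 (lowest LDL -1.11, highest saline -1.19), and the groups overlap for the other 8 genes.

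Trib3 encodes a pseudokinase that binds ATF4 and CHOP and restrains them. Its signal was 4.01, 3.48 and 3.18 on saline replicates 1 to 3 and 4.82, 4.29 and 4.13 on LDL replicates 1 to 3. The groups stood apart by 0.12 between the highest saline and the lowest LDL array, a gap smaller than the spread inside either group. The means were 3.56 ± 0.42 with saline and 4.41 ± 0.36 with LDL (SD, n = 3 each). The log2 difference was 0.85 (SE 0.26, 95% interval 0.24 to 1.46), a 1.81-fold difference that did not pass in limma (adjusted p = 0.508). A difference at least this large in size was found in 1.05% of all features. Slide row was read from the scanner barcode of each array rather than from the sample labels. The difference was 0.81 within slide row 1 (2 arrays of each group) and 0.94 within slide row 2 (1 of each). Its lowest value with 1 array left out was 0.65, when LDL replicate 1 was dropped, and its highest 1.08, when saline replicate 1 was dropped.

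Ddit3 encodes CHOP, the C/EBP-family factor that ATF4 induces and that acts with it on many promoters. Saline replicates 1 to 3 gave -1.19, -1.66 and -1.73, and LDL replicates 1 to 3 gave 0.06, -1.07 and -1.11. LDL replicate 1 stood more than 1 log2 unit above the other LDL arrays, which lay only just above saline replicate 1. The means were -1.53 ± 0.29 and -0.71 ± 0.66 (SD, n = 3 each), and the SD with LDL was reached or exceeded by 1.09% of features. The log2 difference was 0.82 (SE 0.33, 95% limits 0.04 and 1.60, limma adjusted p = 0.645). Without LDL replicate 1 it was 0.43, smaller than the distance between saline replicates 1 and 3. Within slide row 1 it was 0.92 and within slide row 2 it was 0.62. Processed signals of this probe were between 231.2 and 998.1 on the linear scale.

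Ppp1r15a encodes GADD34, which brings protein phosphatase 1 to eIF2 and so ends the response. It had 2.25, 2.10 and 1.75 on saline replicates 1 to 3 and 2.83, 2.12 and 2.04 on LDL replicates 1 to 3. Only LDL replicate 1 was above the whole saline range. The log2 difference was 0.30 (SE 0.24, 95% limits -0.27 and 0.86, limma adjusted p = 0.838) and 0.05 without LDL replicate 1. Trib3, Ddit3 and Ppp1r15a shared an order of arrays: in both groups replicate 1 was highest and replicate 3 lowest. For the first 2 of these genes the same-numbered LDL array was higher by 0.81, 0.81 and 0.94 (Trib3) and by 1.25, 0.59 and 0.62 (Ddit3), and for Ppp1r15a by 0.58, 0.02 and 0.30. Whether replicate numbers pair the cultures is not stated in the labels.

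The promoter stretches of these 3 genes are shown with those of Asns and Atf3, because they hold the matches to ATF-type elements found among the 10 genes, and Ddit3 because its difference was among the largest without such a match. All 10 genes had promoters in the RefSeq table of build GRCm38.p6 (12 windows from 250 bases before to 50 after an annotated start). The core of the C/EBP-ATF composite element was searched as TGATGNAA on both strands, and the cAMP response element, which ATF and CREB factors bind, as TGACGTCA. No match to one overlapped a match to the other, and capitals mark the matches. Each stretch is 150 bases written 5′ to 3′ on the strand of the gene, ending just before the start or, for Trib3, at the end of the match.
Trib3 (chr2:152344039-152344188, minus strand): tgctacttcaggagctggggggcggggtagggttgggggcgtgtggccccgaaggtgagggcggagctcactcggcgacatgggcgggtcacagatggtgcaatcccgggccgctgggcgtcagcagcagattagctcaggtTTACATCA
Ddit3 (chr10:127290643-127290792, plus strand): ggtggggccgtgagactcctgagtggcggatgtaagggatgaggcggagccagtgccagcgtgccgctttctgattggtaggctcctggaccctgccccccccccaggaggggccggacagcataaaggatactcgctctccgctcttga
Asns (chr6:7693210-7693359, minus strand): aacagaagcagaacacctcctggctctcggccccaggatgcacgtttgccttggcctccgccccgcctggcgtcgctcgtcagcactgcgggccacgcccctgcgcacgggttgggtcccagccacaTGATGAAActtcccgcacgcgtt
Atf3 (chr1:191183334-191183483, minus strand): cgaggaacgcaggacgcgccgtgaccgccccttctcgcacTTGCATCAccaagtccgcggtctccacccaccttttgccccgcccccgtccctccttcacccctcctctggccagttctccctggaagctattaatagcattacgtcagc
Ppp1r15a (chr7:45526269-45526418, minus strand): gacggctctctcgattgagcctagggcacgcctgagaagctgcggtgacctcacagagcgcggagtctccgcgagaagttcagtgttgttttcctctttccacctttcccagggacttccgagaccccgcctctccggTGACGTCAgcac
TGATGNAA occurred in 3 of the 12 windows, those of Atf3, Trib3 and Asns, and in 3.97% of all 32851 promoters in the table. The match lay at bases -110 to -103 from the start in Atf3 and 15 to 22 in Trib3, both on the opposite strand, and at -23 to -16 in Asns on the strand of the gene. TGACGTCA occurred in the window of Ppp1r15a, at bases -12 to -5, and in 1.79% of all promoters. The 3 genes with the composite core had log2 differences of 0.85 (Trib3), 0.22 (Atf3) and -0.0017 (Asns). A match describes letters in the window and is not evidence of binding.

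Atf4, the central factor of the response, did not differ after LDL beyond the spread between arrays. Its brighter probe gave 6.78, 6.94 and 6.45 on saline replicates 1 to 3 and 6.78, 6.74 and 6.72 on LDL replicates 1 to 3. The LDL arrays lay close together inside the saline range. The log2 difference was 0.03 (SE 0.14, adjusted p = 0.982 in limma), and the 95% interval of -0.31 to 0.36 bounds the difference in either direction. Its sign was not stable, with -0.11 without saline replicate 3, 0.13 without saline replicate 2, -0.10 within slide row 1 and 0.27 within slide row 2. The dimmer Atf4 probe had 0.84, 1.67 and 1.39 with saline and 1.68, 1.43 and 1.44 with LDL, a difference of 0.22 with overlapping groups.

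Atf5, a factor controlled at translation like ATF4 and known for the mitochondrial unfolded protein response, had the smallest unadjusted p of the 10 genes after Trib3 and Ddit3. It read 6.10, 6.42 and 6.05 on saline replicates 1 to 3 and 6.34, 6.57 and 6.54 on LDL replicates 1 to 3. LDL replicates 2 and 3 were above all saline arrays, while LDL replicate 1 was below saline replicate 2. The log2 difference was 0.29 (SE 0.13, 95% limits -0.03 and 0.61, limma adjusted p = 0.706), with 0.19 in slide row 1 and 0.49 in slide row 2. With 1 array left out it stayed between 0.22 and 0.41. Its high LDL arrays were thus not the array that was high for Ddit3.

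Atf3, a stress-induced factor of the same family, had -2.37, -2.02 and -2.36 with saline and -1.46, -2.23 and -2.40 with LDL for replicates 1 to 3. LDL replicate 1 was the highest array and LDL replicate 3 the lowest of all 6. The log2 difference of 0.22 (95% limits -0.37 and 0.82, limma adjusted p = 0.892) turned to -0.06 without LDL replicate 1. Processed signals were between 147.2 and 349.4.

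The amino acid enzymes had differences close to 0. Asns, which makes asparagine from aspartate and glutamine, gave 6.19, 6.48 and 6.09 on saline replicates 1 to 3 and 6.22, 6.24 and 6.29 on LDL replicates 1 to 3, so that all LDL arrays fell inside the saline range. Its log2 difference was -0.0017 (SE 0.13, 95% limits -0.30 and 0.30, limma adjusted p = 0.998). Psat1, the aminotransferase of the serine pathway, gave 5.80, 6.18 and 5.88 with saline and 5.81, 5.98 and 6.08 with LDL. Its log2 difference was 0.00098 (95% limits -0.32 and 0.32, limma adjusted p = 0.998). The dimmer Psat1 probe spread more, with 0.88, 1.99 and 1.64 with saline and 1.38, 1.52 and 1.61 with LDL, and its difference was 0.00012. Within slide row 1 the differences were -0.10 for Asns and -0.095 for Psat1, and within slide row 2 they were 0.20 and 0.19. The intervals exclude log2 differences above 0.32 in size for both enzymes, given the model, which is less than the estimates for Trib3 and Ddit3. Neither difference was set against those of Trib3 and Ddit3 in a test.

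Sesn2 and Ddit4 both restrain mTORC1, the kinase complex that drives growth: sestrin 2 acts through the amino acid sensing branch and REDD1, the product of Ddit4, through the TSC complex. Sesn2 gave 3.41, 3.50 and 3.31 with saline and 3.37, 3.30 and 3.30 with LDL. It had the narrowest interval of the 10 genes, with a log2 difference of -0.08 (SE 0.10, 95% limits -0.31 and 0.15, limma adjusted p = 0.906). That value moved to -0.13 without saline replicate 3 and to -0.03 without saline replicate 2, and stayed negative. Ddit4 gave 2.97, 4.08 and 4.02 on saline replicates 1 to 3 and 3.71, 2.95 and 3.64 on LDL replicates 1 to 3. Saline replicate 1 and LDL replicate 2 were the low arrays, 1 in each group, and the other 4 lay between 3.64 and 4.08. Its SD with saline was 0.62, reached or exceeded by 4.25% of features, and its log2 difference was -0.26 (SE 0.34, 95% limits -1.07 and 0.54, limma adjusted p = 0.911). The Ddit4 value moved to -0.62 without saline replicate 1 and to -0.02 without LDL replicate 2. Same-numbered arrays differed by 0.73, -1.13 and -0.39.

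**Figure D2:**
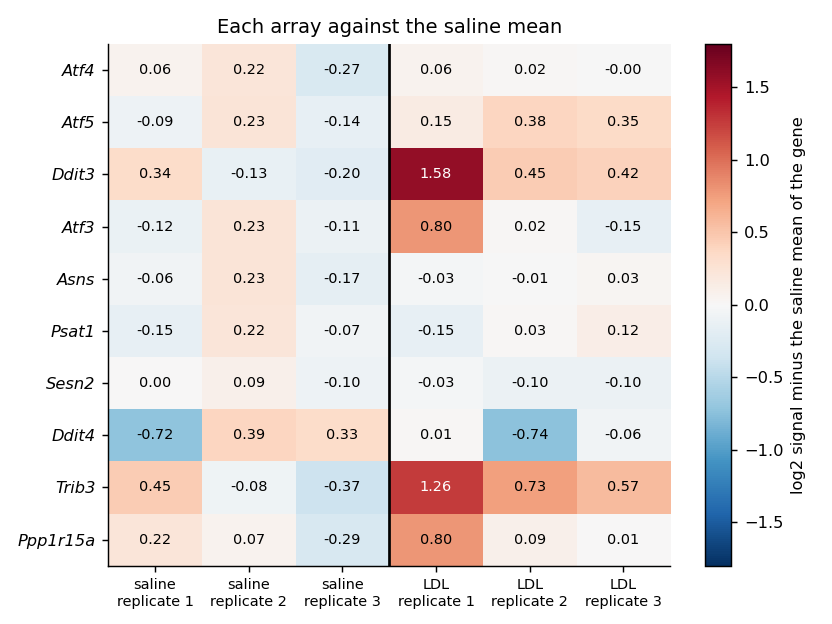
Log2 signal of each of the 10 genes (rows) on each array (columns) minus the mean of the 3 saline arrays of that gene; red is higher and blue lower. LDL replicate 1 has the highest values, with 1.58 for Ddit3, 1.26 for Trib3, and 0.80 for both Atf3 and Ppp1r15a, while saline replicate 2 has between 0.22 and 0.23 for Atf4, Atf5, Atf3, Asns and Psat1.

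The genes were then read array by array. LDL replicate 1 was the highest LDL array for 7 of the 10 genes, and 39.1% of all features were highest there among the LDL arrays. Against the saline mean it had 1.58 for Ddit3, 1.26 for Trib3, 0.80 for Ppp1r15a and 0.80 for Atf3, and values near 0 for Atf4 (0.06), Asns (-0.03), Sesn2 (-0.03) and Ddit4 (0.01). LDL replicates 2 and 3 were also above the saline mean for Trib3 (0.73 and 0.57) and Ddit3 (0.45 and 0.42), but for Ppp1r15a and Atf3 they lay within 0.15 of it. Among the saline arrays, replicate 2 was highest for 7 of the 10 genes (35.1% of all features) and replicate 3 lowest for 7 (29.8% of all features). The 5 genes Atf4, Atf5, Atf3, Asns and Psat1 each lay 0.22 to 0.23 above their saline mean on saline replicate 2, the array with the lowest 75th percentile and the lowest share of probes above background. The part of these array properties in the spread was not tested. The median SD of the 10 genes was 0.23 with saline and 0.25 with LDL, beside 0.19 and 0.10 over all features.

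**Figure D3:**
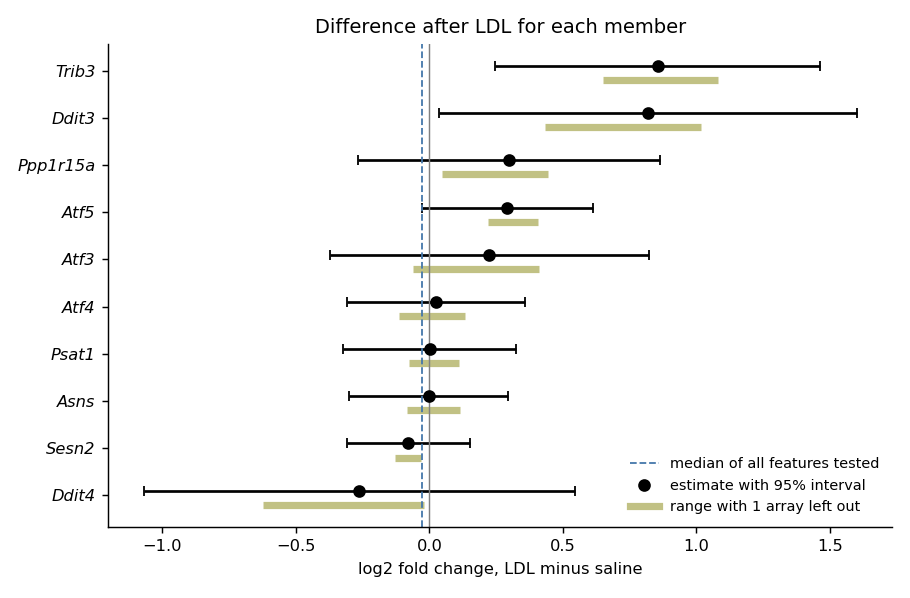
Log2 fold change, LDL minus saline, of each gene (points) with the 95% interval of limma (thin bars) and the range of the estimate with 1 array left out (thick bars); the dashed line is the median of all features tested. The intervals of Trib3 (0.24 to 1.46) and Ddit3 (0.04 to 1.60) lie above 0 before adjustment, and the other 8 include 0.

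The rest of the pathway was read through 5 lists of 61 genes. Of the 59 tested, 0 reached an adjusted p below 0.05 by limma, 4 (6.78%) had an unadjusted p below 0.05 with a positive difference, beside 2.98% of all features, and 0 with a negative one, beside 4.52%. There were 45 positive (76.3%) and 14 negative differences, with a median of 0.09, where 43.7% of all features were positive. In 8 genes (13.6%) all LDL arrays were higher and in 1 all were lower, beside 5.83% and 8.79% of all features. Taken in either direction, groups did not overlap in 15.3% of the genes tested, near the 14.6% of all features. Most differences in the lists were thus positive and small, and some of the gaps between groups were narrow. The highest saline and lowest LDL arrays read 4.54 and 4.58 for Eif2b2, and -0.66 and -0.62 for Stc2.

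The 13 genes of the sensing and translation machinery, the eIF2 kinases, the subunits of eIF2 and of its exchange factor eIF2B and the constitutive phosphatase subunit, had a median of 0.06 with 9 positive. Leaving out saline replicate 1 turned that median to -0.03, and leaving out saline replicate 2 gave 0.16. The smallest p values belonged to Eif2b3 and Eif2b2, subunits of eIF2B, and Eif2ak4, the kinase GCN2 that senses uncharged tRNA. Eif2b3 had 0.03, 0.57 and 0.38 with saline and 0.80, 0.69 and 0.68 with LDL (log2 difference 0.40, adjusted p = 0.612 in limma), and 0.16 without saline replicate 1. Eif2b2 had a log2 difference of 0.23 (adjusted p = 0.714) and Eif2ak4 of -0.14 (adjusted p = 0.836), the latter -0.06 without saline replicate 1.

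Among 9 amino acid transporters the median was 0.08 with 7 positive (0.02 when saline replicate 1 was left out), and Slc7a11 stood apart from the others. This cystine importer, a target of ATF4 and also of the oxidative stress factor NRF2, had 0.30, 0.25 and 0.37 on saline replicates 1 to 3 and 2.28, 1.12 and 1.19 on LDL replicates 1 to 3. Every LDL array was more than 0.7 above every saline array, and LDL replicate 1 was again the highest. Its log2 difference was 1.22 (SE 0.30, adjusted p = 0.422 in limma), and 0.85 without LDL replicate 1. Its partner chain Slc3a2 had 0.15 (adjusted p = 0.843), with 0.07 without LDL replicate 1, and the glycine transporter Slc6a9 0.13 (adjusted p = 0.883), with 0.01 without saline replicate 1.

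The serine, one-carbon and amino acid enzymes, with 11 of 12 tested, had a median of 0.08 and 8 positive differences, and that median ranged between 0.01 (saline replicate 3 left out) and 0.17 (LDL replicate 1 left out), and was -0.011 within slide row 1. Cth, which makes cysteine from cystathionine, had 0.94, 0.87 and 0.65 with saline and 1.11, 1.34 and 1.19 with LDL, without overlap, and a log2 difference of 0.39 (SE 0.12, adjusted p = 0.511 in limma). A dimmer Cth probe had 0.52. Aldh1l2 had 0.27 (adjusted p = 0.738) and was 0.18 without saline replicate 1, and Psph, the last enzyme of serine synthesis, had 0.15 (adjusted p = 0.845) and ranged between 0.07 (LDL replicate 3 left out) and 0.28 (LDL replicate 1 left out). The highest value in the list, 1.81 for Gpt2, named after its values were seen, rested on 1 array: saline replicate 3 read -2.84 while the other 5 arrays read 2.67 to 3.55, and without that array the difference was -0.18.

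Cytosolic aminoacyl-tRNA synthetases, which charge tRNA and include many ATF4 targets, had a median of 0.08 over 12 genes, of which 11 were positive. With 1 array left out it ranged between 0.02 (saline replicate 1) and 0.19 (saline replicate 2). Sars had a log2 difference of 0.25 (adjusted p = 0.706 in limma). Its groups only just missed overlapping, with the highest saline array at 3.95, the lowest LDL array at 3.97 and a saline SD of 0.17. Wars had 0.27 (adjusted p = 0.709) and Iars 0.21 (adjusted p = 0.788), the last 0.09 without saline replicate 1. The 15 other ATF4 and CHOP targets, 14 of them tested, had a median of 0.16 with 10 positive differences, and 0.10 without saline replicate 1. Ero1a, an oxidase of the endoplasmic reticulum that CHOP induces, read -1.70, -1.73 and -1.73 with saline and -0.87, -1.14 and -1.20 with LDL. Its log2 difference was 0.65 (SE 0.12, adjusted p = 0.202 in limma), the smallest adjusted p among the genes of the 5 lists, and it stayed between 0.55 and 0.71 with 1 array left out. Stc2, a secreted glycoprotein, had 0.29 (adjusted p = 0.702), with 0.18 without saline replicate 1, and Nupr1, a stress-induced chromatin protein, 0.23 (adjusted p = 0.750). Fgf21 was not tested, being well above background on 1 array, and no probe was matched to Pycr1.

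**Figure D4:**
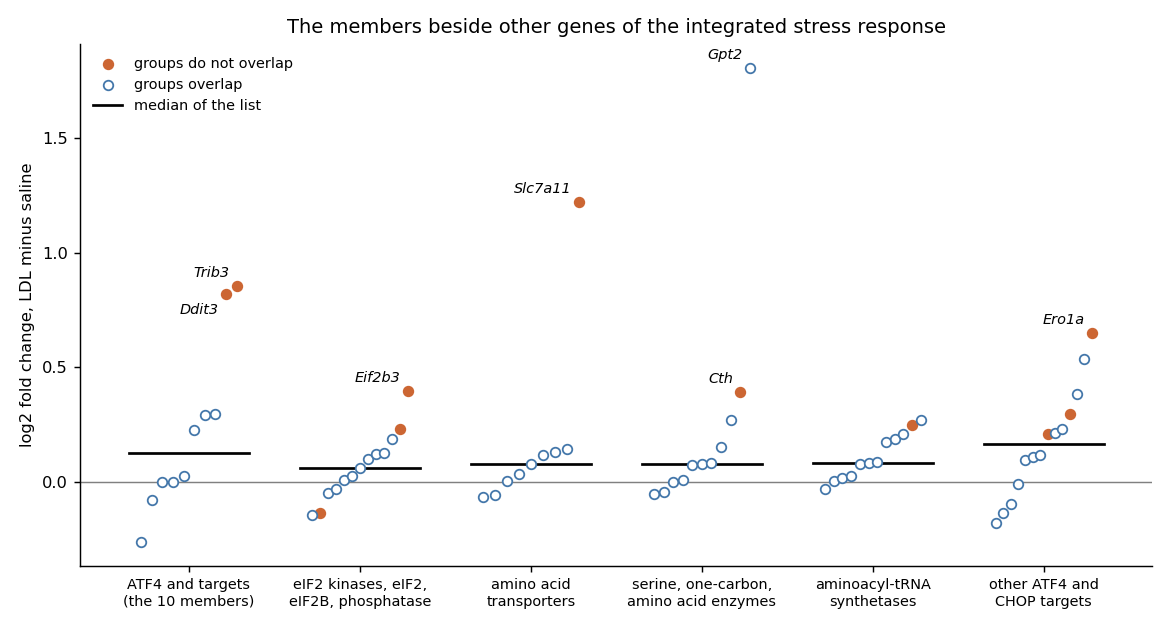
Log2 fold change, LDL minus saline, of the 10 genes and of the tested genes of 5 other lists of the response (points, spread sideways by rank); filled points have groups that do not overlap and bars are list medians. Trib3 and Ddit3, Slc7a11 at 1.22 and Ero1a at 0.65 are the highest of their lists, and Gpt2 at 1.81 has overlapping groups. The next gene in the list of Ero1a lies at 0.54.

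The labelled cell type was checked with 39 markers, all of which had probes. All 8 precursor markers were well above background on all 6 arrays, as were all 6 astrocyte and all 6 oligodendrocyte markers, so detection alone did not set the precursor markers apart. The neuron markers Dcx and Neurod1, the microglia marker P2ry12 and the vascular markers Cdh5 and Pdgfrb were not well above background on any array. The number tested was 5 of 7 for neurons, 4 of 6 for microglia and 3 of 6 for vascular cells. The mean level of the tested markers of each list is given to compare arrays, not lists. For precursor markers it lay between 3.19 and 3.26 with saline and between 3.06 and 3.20 with LDL. For neuron markers it lay between 0.64 and 0.76 with saline and between 0.63 and 0.67 with LDL, and for astrocyte markers between -0.03 and 0.16 and between -0.04 and 0.16. For oligodendrocyte markers the ranges were -0.31 to -0.11 with saline and -0.46 to -0.27 with LDL, for microglia markers 0.10 to 0.29 and 0.00195 to 0.13, and for vascular markers -0.63 to -0.57 and -0.71 to -0.59. Of the 32 markers tested, 1 passed in limma: Gfap rose by 1.35 (adjusted p = 0.0216), on 1 of its 2 probes, the other having 0.15. The mean over both was 0.75 and did not pass (adjusted p = 0.302), and with LDL replicate 1 left out the other probe was the brighter of the pair and gave 0.31. Gfap passed in 10 of the 20 settings tried, and not with the replicate block (adjusted p = 0.115) or with a block for slide row (adjusted p = 0.0678). The Gfap probe that passed read between -3.63 and -2.01 over the 6 arrays. The other 5 astrocyte markers had negative differences, and the median of that list was -0.21. Slc1a3 had -0.33 (limma adjusted p = 0.508), with all LDL arrays lower. The part of other cell types in the differences of Trib3 and Ddit3 was not tested.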

How the data were processed

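The deposited array files hold intensity values on a linear scale. Per the file headers, Agilent Feature Extraction 10.7.3.1 subtracted the background and detrended each array. The submitters' processing notes also list R 3.4.4 and limma 3.34.9. The authors deposited log2 values for the same arrays, aligned between arrays by a method not given in the sources used here; these served as an alternative.

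Here, log2 processed signals were set relative to the 75th percentile of each array, leaving out control spots and outlier-flagged spots, and spots of a probe were averaged. A probe was tested if at least 50% of its spots were well above background on all 3 arrays of at least 1 group, and each gene was represented by its brightest probe. Accessions named 28331 of 55681 probes. LDL was compared with saline over all 24222 features in limma 3.58.1 (R 4.3.3; lmFit and eBayes, two-sided, no covariates) with Benjamini-Hochberg adjustment. An exact permutation test of 3 against 3 arrays cannot go below p = 0.1. Replicates were separate experiments per the labels. The genes, lists and tests were chosen with earlier results of these data known. The text names all 10 genes and, from each other list, the 3 with the smallest p. On data simulated for this comparison (24165 features, 200 changed), limma recovered 0% at a log2 change of 0.5, 59.5% at 1 and 91.5% at 2. The changed features were drawn at random, so these rates are not specific to genes with a wide spread. The SD with LDL was reached or exceeded by 6.81% of features for Trib3 and by 1.09% for Ddit3. Figures were drawn with matplotlib 3.10.9.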

Additional observations from a re-analysis of the deposited data

How the results depend on the processing

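None of the 10 genes passed in limma under any of the 19 alternatives. Trib3, Ddit3, Atf5 and Ppp1r15a stayed positive and Sesn2 and Ddit4 negative in all of them. Signs turned for Psat1 (-0.013 with quantile normalization, -0.095 in slide row 1, -0.076 to 0.11 with 1 array left out), Asns (0.033 with each array minus its median, 0.0099 with the authors' values, -0.085 to 0.11 with 1 left out), Atf4 (-0.10 in slide row 1, -0.11 to 0.13), Atf3 (-0.060 to 0.41) and Gpt2 (-0.26 in slide row 1, -0.18 to 3.02). The median of the serine and amino acid enzyme list turned to -0.011 in slide row 1, and that of the eIF2 list to -0.03 without saline replicate 1.

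Of all features, the 6 higher became 10 with each array minus its median, 11 with normexp and quantile normalization, 10 with the authors' values, 0 without the background filter, 1 when slide row was a block, 19 with trended robust variances, 3 with outlier-flagged spots kept and 0 in slide row 1. The 28 lower became 0 unfiltered, 15 when slide row was a block, and 0 within slide row 1. With 1 array left out there were 0 to 7 higher and 0 to 25 lower: no calls when saline replicate 3, LDL replicate 2 or LDL replicate 3 was dropped, 3 when saline replicate 2 was dropped and 17 when LDL replicate 1 was. Kept flagged spots and slide row 1 alone were added after the data were seen. Fits with fewer arrays have fewer degrees of freedom; for the others the cause was not tested.

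Under the replicate block, 3 features were higher and 10 lower, and Trib3 (adjusted p = 0.146) and Ddit3 (adjusted p = 0.358) still did not pass, while Gfap lost its call (adjusted p = 0.115). The block leaves fold changes as they are. The unadjusted limma p was 0.00037 for Trib3 and 0.0044 for Ddit3 with the block, and 0.013 and 0.043 without it. Deviations of same-numbered arrays correlated at 0.24, -0.08 and 0.21, and those of differently numbered arrays at -0.27 to 0.08. The values 0.24 and 0.21 lay above all differently numbered ones, and -0.08 did not. Deviations were taken from the mean of the 3 arrays of a group, so these correlations are not independent of each other. These correlations do not settle whether the cultures were paired. The labels do not state it, so pairing was not assumed in the main fit.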
